A study of Homo sapiens with 12 samples.

Results

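The transcripts of 50 receptor tyrosine kinase genes, all the members of this family that were listed for study apart from AXL, MERTK and TYRO3, were read from a table of raw counts for 45478 genes. Members were taken by gene symbol, and all 50 symbols were found. The counts came from 12 mRNA libraries of 2 clear cell renal cell carcinoma (ccRCC) cell lines, with 3 libraries in each of 4 groups. A498 and 786-O were the parental lines, and both lack a working VHL tumour suppressor. A498-Su and resistant 786-O, both marked by the ending -Su in the plots, were their sunitinib-resistant derivatives. They were grown out in rising drug and kept at 2 μM and 4 μM sunitinib, respectively, for 4 months or more than 20 passages. Each was a single selected line, so that the libraries of a group repeat a culture and not the selection. The paper gives the same serum-containing medium for both lines, and the labels give the treatment as none. The library names in the titles carry the tag veh. The paper states that sunitinib stayed in the medium during the whole selection, so whether drug was present at harvest is not settled here. Whether the 3 libraries of a group came from separate cultures is not stated, so the p-values measure the spread between these libraries, which may be technical.

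Receptor tyrosine kinases sit in the plasma membrane, bind a ligand outside the cell and add phosphate to tyrosines on themselves and on partner proteins inside it. Through adaptors such as GRB2 and the PI3-kinase subunits, they drive the MAP kinase and AKT pathways that control growth, survival and migration. In ccRCC, loss of VHL raises the VEGF and PDGF ligands, whose receptors on endothelial cells and pericytes are the intended targets of sunitinib, while carcinoma cells are known to use receptors such as EGFR, MET, AXL and the FGFRs. Sunitinib inhibits the VEGF receptors (KDR, FLT1, FLT4), the PDGF receptors (PDGFRA, PDGFRB), KIT, FLT3, CSF1R and RET.

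Total counts ranged from 20042519 to 25831163 in A498-Su and from 21686648 to 34951585 in A498. They were higher in 786-O, at 40845091 to 47972092, and in resistant 786-O, at 42643735 to 46888482. Levels are given as CPM (counts divided by the normalized library size and rescaled), and, wherever different genes are compared, in CPM per kilobase of exon. A gene was called expressed in a group when it had at least 1 CPM in every library, and at the floor when it had no more than 3 counts in every library, which corresponds to 0.0613 to 0.144 CPM depending on the library. Of the markers read to check the ccRCC label, 6 of 7 renal carcinoma markers were expressed in every group, and CA9 in A498 only. None of 6 endothelial and 5 haematopoietic markers was expressed in any group, with summed levels of at most 0.861 and 1.39 CPM, respectively. Of 6 fibroblast and pericyte markers, 3 were expressed in A498 and 4 in the other groups, with COL1A2 at the floor throughout.

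Libraries that stand apart were looked for before any receptor was compared. Replicate 2 of resistant 786-O differed from replicates 1 and 3 with an SD of 0.298 and 0.303 in log2 level across genes, whereas other replicates of a group differed by 0.0843 to 0.132. In addition, the A498-Su libraries were nearer to 786-O than to the line they are labelled with. Of 19929 genes tested, 30.8% differed more than 2-fold and past the test between A498-Su and A498, against 20% in the contrast of A498-Su with 786-O and 31.9% in that of the parental lines. For this reason the A498-Su values are set beside both parental lines, and the identity of the A498-Su cells was not tested. The comparisons of A498-Su and of resistant 786-O with 786-O share the 786-O libraries, and those of A498-Su with A498 and with 786-O share the A498-Su libraries. The labels name a different batch for each group, and batch and group therefore cannot be told apart.

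The 3 members that carry the main patterns are shown with the 250 bases upstream of their annotated start, because they stand for the receptors called in the same direction against every reference (EGFR and FGFR2 higher in the resistant lines, MET lower). The sequences are the first 250 bases of RefSeq promoter windows of GRCh38.p14, which run on for another 50 bases past the start, read 5′ to 3′ on the gene's own strand, and capitals mark the GC box GGGCGG or its complement CCGCCC, the site bound by SP1-type factors. EGFR (ENSG00000146648) is on the plus strand at chr7:55018767-55019016, FGFR2 (ENSG00000066468) on the minus strand at chr10:121598445-121598694, and MET (ENSG00000105976) on the plus strand at chr7:116671946-116672195.
EGFR: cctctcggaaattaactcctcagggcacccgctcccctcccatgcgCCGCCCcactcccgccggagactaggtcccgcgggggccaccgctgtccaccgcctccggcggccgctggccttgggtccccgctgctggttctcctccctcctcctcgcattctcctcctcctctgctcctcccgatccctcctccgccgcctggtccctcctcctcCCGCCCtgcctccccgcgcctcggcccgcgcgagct
FGFR2: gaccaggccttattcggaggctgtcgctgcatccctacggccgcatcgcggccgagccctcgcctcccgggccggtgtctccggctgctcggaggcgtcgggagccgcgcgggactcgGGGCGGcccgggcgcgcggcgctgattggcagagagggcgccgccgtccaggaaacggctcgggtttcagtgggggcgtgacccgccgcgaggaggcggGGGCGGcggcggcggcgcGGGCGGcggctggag
MET: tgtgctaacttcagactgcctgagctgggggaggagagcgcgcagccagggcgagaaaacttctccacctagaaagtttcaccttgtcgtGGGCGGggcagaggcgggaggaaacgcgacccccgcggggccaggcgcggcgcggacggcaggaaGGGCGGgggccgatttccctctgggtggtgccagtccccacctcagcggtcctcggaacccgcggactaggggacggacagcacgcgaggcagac
The stretches held 2 GC boxes in EGFR, 3 in FGFR2 and 2 in MET, and none held a TATAAA or the hypoxia response core ACGTG on either strand. With the last 50 bases, which are not printed, the windows held 3, 5 and 3 GC boxes, and that of MET also held 2 matches to ACGTG, counted over both strands. MET had 1 window, whereas EGFR had 2 and FGFR2 had 5, of which only the outermost is printed. The other EGFR window held 2 matches to TATAAA and no GC box. The FGFR2 window at chr10:121594209-121594508 held 2 matches to ACGTG and 1 GC box, and the remaining FGFR2 windows held none of these motifs. Promoter windows of 300 bases were given for 45 of the 50 members, in 75 windows. Of these, 62.7% contained GGGCGG on either strand, compared with 45% of 35114 windows of all genes. The hypoxia core ACGTG was found in 24% of member windows and 21.4% of all windows, and TATAAA in 6.67% and 11.5%, respectively. These matches are a description of letters in the windows, and binding was not measured.

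Which receptors were expressed differed little in number but partly in kind between the groups. At 1 CPM or more in every library, 23 of 50 receptors were expressed in A498, 21 in A498-Su, 20 in 786-O and 21 in resistant 786-O. A core of 17 was expressed in all 4 groups: the ERBB receptors EGFR and ERBB2, the insulin-like growth factor receptor IGF1R, all 4 FGF receptors, the Wnt co-receptors ROR1 and RYK, the hepatocyte growth factor receptor MET, the collagen receptor DDR1, and 6 Eph receptors (EPHA1, EPHA2, EPHA4, EPHA6, EPHB1, EPHB2). A further 12 were expressed in some groups, and 21 in none. Of the latter, 7 were at the floor in all 4 groups, namely FLT1, FLT3, RET, INSRR, MUSK, EPHA3 and EPHA8. The count of expressed receptors moved to between 21 and 25 when 0.5 CPM was required, and to between 15 and 18 at 5 CPM.

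**Figure D1:**
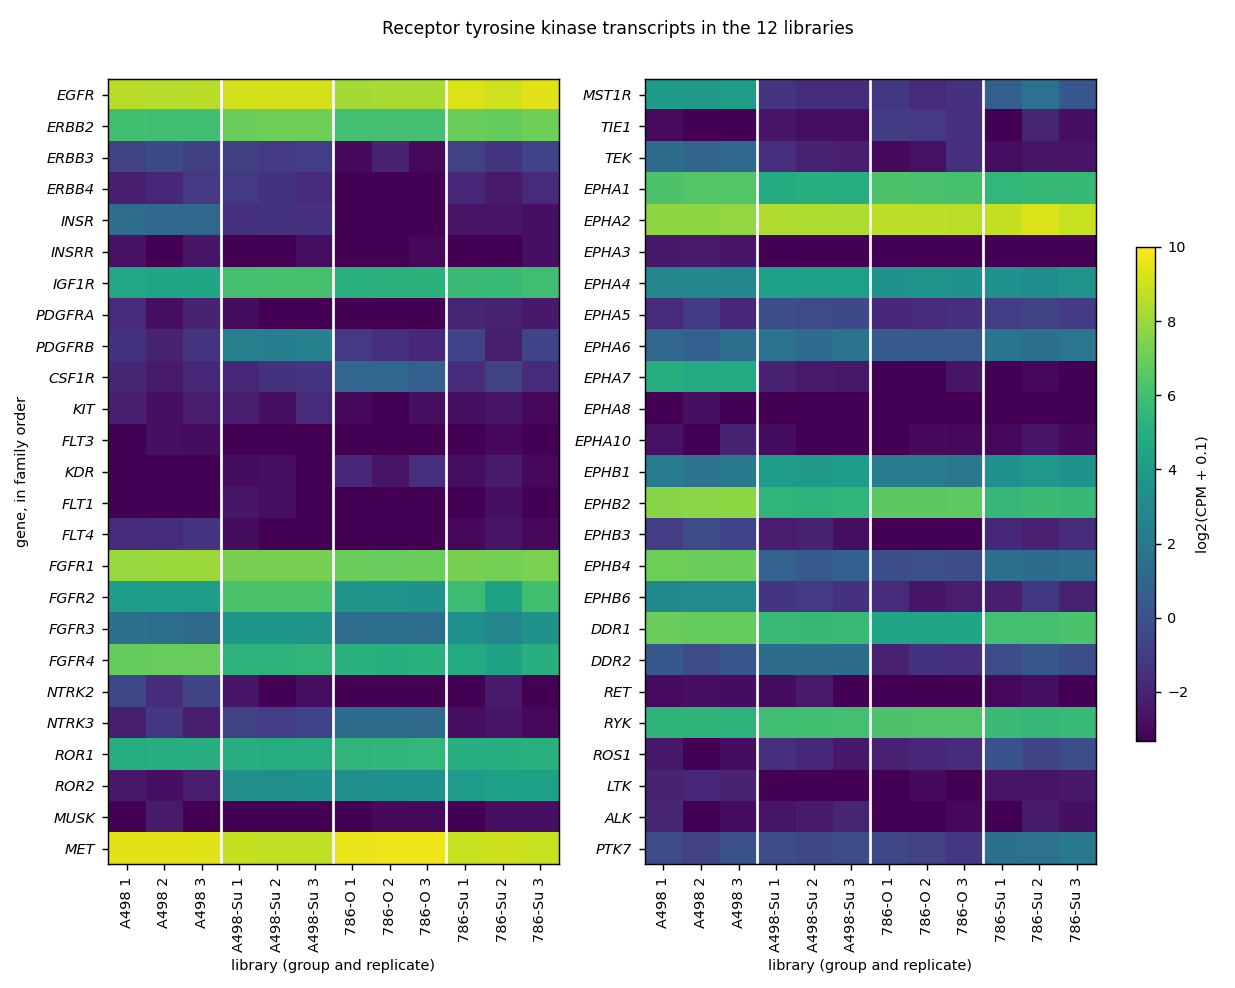
Level of each of the 50 receptors (rows, in family order) in each of the 12 libraries (columns), as log2(CPM + 0.1) from dark (low) to yellow (high). EGFR, MET and EPHA2 are bright in every library, whereas EPHA7, EPHB4 and MST1R are bright in A498 only, and most PDGFR and VEGFR family members are dark throughout.

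Per kilobase of exon, a few receptors made up most of the family's transcripts. In A498, MET was the highest, at 93.2 ± 2.45 CPM per kb (SD, n = 3) or 30.5% of the summed level of the 50 receptors, followed by EPHA2, a receptor for ephrin-A ligands, at 53.7 CPM per kb. FGFR4 (24.7 CPM per kb) and EGFR (23.8 CPM per kb) came next, and their libraries overlapped, so their order is not resolved. The lengths join the exons of all annotated transcripts of a gene, 15941 bases for EGFR and 4810 for FGFR4. Ranks and shares depend on that choice, and by CPM alone A498 had 380 for EGFR and 119 for FGFR4. MET also led in 786-O, with 110 CPM per kb and 36.9% of the sum. In both resistant lines EPHA2 took the first place, with 80.4 CPM per kb (31.7%) in A498-Su and 124 CPM per kb (40.4%) in resistant 786-O, MET came second and EGFR took the third. By CPM alone EGFR was the highest in both, with means of 556 CPM in A498-Su and 615 CPM in resistant 786-O, against 333 and 513 CPM for EPHA2. EGFR, MET, EPHA2 and FGFR1 were the highest receptors by CPM in every group, although FGFR1 was at rank 8 per kilobase in A498. Together these receptors held 60.3 to 61% of the sum per kilobase in the A498 libraries and 72.4 to 73.3% in A498-Su. They held 78.2 to 78.5% in 786-O and 76.2 to 80.5% in resistant 786-O. Since these are bulk samples, fewer cells with a transcript and less of it per cell cannot be told apart.

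**Figure D2:**
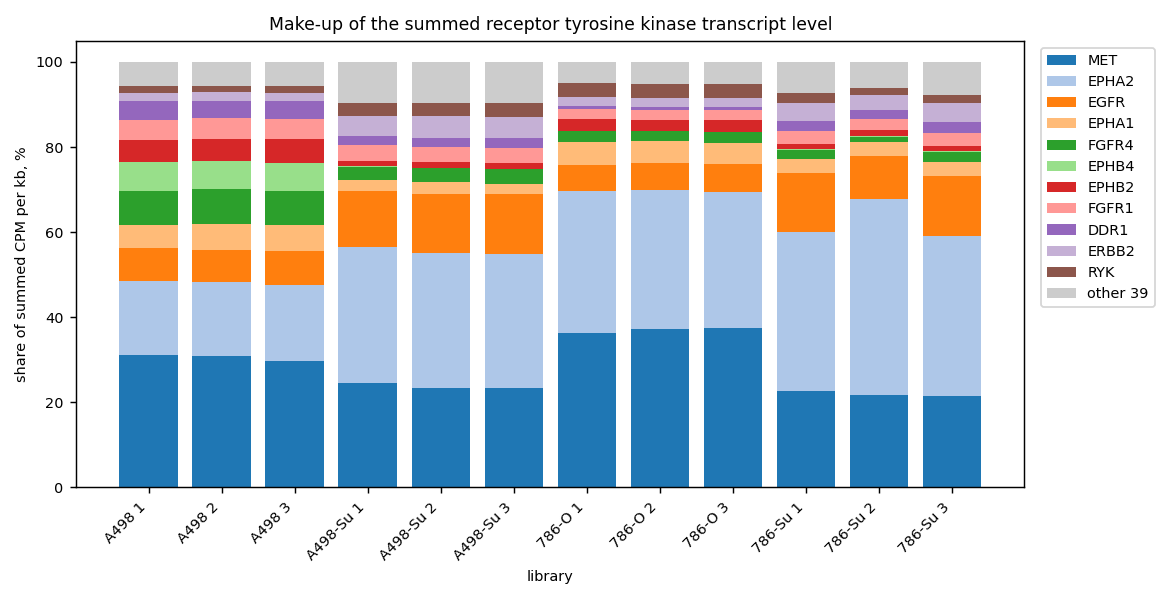
Share of the summed CPM per kb of the 50 receptors (y axis, %) taken by the named receptors in each library (x axis), with the 39 others in grey. MET is the largest block in the A498 and 786-O libraries, EPHA2 in those of A498-Su and resistant 786-O, and the FGFR4, EPHB4 and EPHB2 blocks are largest in A498.

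The targets of sunitinib were close to absent from these cells. Only 2 of the 9, PDGFRB and CSF1R, reached 1 CPM in any group, and only these passed the filter on low counts. Summed over all 9, the target transcripts made up 0.0292 to 0.0485% of the family's CPM per kb in A498, 0.319 to 0.359% in A498-Su, 0.126 to 0.16% in 786-O and 0.0436 to 0.0527% in resistant 786-O. KDR, the main VEGF receptor of endothelium, had 0 counts in each A498 library, 1, 1 and 0 in A498-Su, 7, 3 and 11 in 786-O and 2, 4 and 1 in resistant 786-O. FLT1 and RET had at most 2 counts in any library, FLT3 at most 1, KIT at most 5, and PDGFRA and FLT4 at most 8. These 7 genes did not pass the filter on low counts, and no fold is given for them. Some groups did not overlap in counts, as for KDR in 786-O against A498, PDGFRA with 8, 6 and 4 in resistant 786-O and 0 in each 786-O library, and FLT4 with 7, 5 and 8 in A498 and 1, 0 and 0 in A498-Su. All of these lay below 1 CPM.

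The PDGF receptor PDGFRB (ENSG00000113721, chr5:150113839-150155872, minus strand), a receptor of pericytes and fibroblasts, stood out in A498-Su. It was at 0.29, 0.139 and 0.294 CPM in A498, 5.41, 5.12 and 5.95 in A498-Su, 0.368, 0.259 and 0.177 CPM in 786-O, and 0.531, 0.114 and 0.547 CPM in resistant 786-O. All A498-Su libraries lay above all others, and the remaining groups overlapped. The log2 fold change was 4.43 ± 0.36 (SE, edgeR quasi-likelihood test, adjusted p = 2.4e-08) against A498 and 4.36 ± 0.33 (adjusted p = 2.1e-08) against 786-O. With counts of 10, 3 and 8 in A498, the ratio of summed counts was 21.9 (95% exact interval 14.1 to 35.7, counting error only). In resistant 786-O the log2 fold change was 0.61 ± 0.44 and was not called (adjusted p = 0.23), but was 1.02 and called without replicate 2 (adjusted p = 0.0051). The 6 fibroblast and pericyte markers did not move together in A498-Su. RGS5 was at 9.16 ± 0.57 CPM there and at means of 2.88 to 3.35 CPM in the other groups, and LUM at 16.2 CPM, against 0.0219 CPM in A498 and 4.45 CPM in 786-O. COL1A1 was at 3.7 CPM in A498-Su, 55.4 CPM in A498 and 2.25 CPM in 786-O, ACTA2 at 7.36, 11 and 5.39 CPM, respectively, and COL1A2 and DCN were at the floor in A498-Su. Summed over the 6, the level was 64.4 to 75.7 CPM in A498, 35 to 38.7 in A498-Su, 15 to 15.8 in 786-O and 24.5 to 27.8 in resistant 786-O. Their part in the PDGFRB difference was not tested.

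CSF1R, the receptor for macrophage colony-stimulating factor, is encoded next to PDGFRB on the same strand (chr5:150053291-150113372) but followed another pattern. It was found at 0.174, 0.093 and 0.184 CPM in A498, 0.186, 0.287 and 0.313 in A498-Su, 2.03, 2.07 and 1.6 CPM in 786-O, and 0.225, 0.504 and 0.197 CPM in resistant 786-O. Only parental 786-O was clearly above the others. CSF1R fell by 2.62 ± 0.28 on the log2 scale in resistant 786-O (edgeR, adjusted p = 8.2e-07) and was lower in A498-Su than in 786-O (-2.85 ± 0.33, adjusted p = 2.4e-06). Against A498 it was not called (0.73 ± 0.53, adjusted p = 0.23). The haematopoietic markers PTPRC and CD3E were at the floor in every group.

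**Figure D3:**
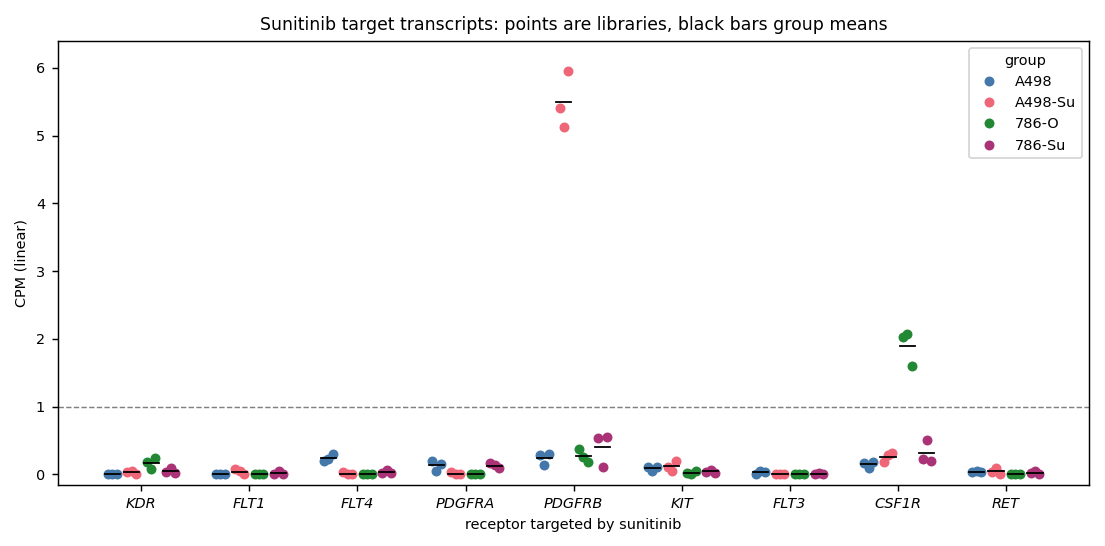
CPM (linear y axis) of the 9 sunitinib targets in each library (points, coloured by group), with group means as black bars and the limit of 1 CPM as a dashed line. Only PDGFRB in A498-Su (5.12 to 5.95 CPM) and CSF1R in 786-O (1.6 to 2.07 CPM) lie above the line.

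For the comparison with resistance, 34 of the 50 receptors passed the filter on low counts and 16 did not. Some of the 34 passed only through the group in which they were high, so the counts that follow are a description. Between A498-Su and A498, 16 receptors were called higher and 13 lower at an adjusted p under 0.05, and 5 were not called. Over all genes, 72.7% were called, 36.3% higher and 36.4% lower. Between resistant and parental 786-O, 21 were higher, 8 lower and 5 not called, beside a background of 68.5%, with 35% higher and 33.5% lower. When A498-Su was set against 786-O, 20 were higher, 8 lower and 6 not called, beside 63.6% of all genes called, 31.6% higher and 32.1% lower. The median log2 fold change of the 34 was 0.44, 0.87 and 0.90 in these comparisons, and that of all genes -0.004, 0.033 and 0.003. Of the 17 receptors expressed in all groups, each of the 3 comparisons called 10 higher, 6 lower and 1 not. With a log2 fold change beyond 1 also required, 12 were higher and 11 lower in A498-Su against A498, where 14.3% and 16.5% of all genes were. The counts were 16 and 3 in resistant 786-O, beside 16.2% and 5.76% of all genes and 22% in either direction. Against 786-O, A498-Su had 15 higher and 4 lower, beside 13.7% and 6.3%.

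The receptors are grouped here by direction. Against all 3 references (A498-Su against A498 and 786-O, resistant against parental 786-O), 9 receptors were called higher, namely EGFR, ERBB2, IGF1R, FGFR2, FGFR3, EPHA5, EPHA6, EPHB1 and DDR2, as were 12.5% of all genes. EPHA5 was below 1 CPM in every library, and EPHA6 overlapped between A498-Su and A498 (edgeR, adjusted p = 0.028). MET, EPHA1 and EPHB2 were called lower in all 3, as were 12.3% of all genes. Opposite directions in the labelled pairs were called for 8 receptors, INSR, FGFR1, NTRK3, MST1R, EPHB3, EPHB4, DDR1 and RYK. These 8 are near the background, since 21.7% of all genes were called in opposite directions. ROR2, EPHA2 and ROS1 were called higher in both labelled pairs but not against 786-O, where EPHA2 was lower, and with the 9 above they make 12, beside 15.2% of all genes. ROS1 was below 1 CPM in every library and overlapped between A498-Su and A498. FGFR4 was lower in both labelled pairs and not called against 786-O, which makes 4 receptors beside 14.3% of all genes. The remaining 10 were called in 1 labelled pair only.

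Within the ERBB family, EGFR and ERBB2 were higher in the resistant lines. EGFR (chr7:55019017-55211628), which binds EGF, TGFA and their relatives, stood at 384, 370 and 385 CPM in A498, 541, 559 and 568 in A498-Su, 286, 306 and 310 CPM in 786-O, and 639, 524 and 681 CPM in resistant 786-O. Every resistant library was above every parental one. Its log2 fold change was 0.55 ± 0.07 in A498-Su (adjusted p = 6.9e-06, edgeR) and 1.03 ± 0.07 in resistant 786-O (adjusted p = 1.1e-08), and the difference between these changes, -0.48 ± 0.10, was itself called (adjusted p = 0.00072). Against 786-O, EGFR in A498-Su was higher by 0.89 ± 0.07. With the trend of GC content and exon length removed, the change in A498-Su was 0.33. ERBB2 (chr17:39687914-39730426), the partner of the other ERBB receptors that has no ligand of its own, was at 62.7, 60.9 and 60.9 CPM in the A498 libraries and reached 129, 134 and 132 CPM in A498-Su. It was at 65.2, 66 and 65 CPM in 786-O and reached 125, 115 and 135 CPM in resistant 786-O. Between the parental lines ERBB2 was not called (log2 fold change 0.09 ± 0.05, adjusted p = 0.15), and the resistant libraries lay entirely above them. ERBB2 rose by 1.10 ± 0.05 on the log2 scale in A498-Su (adjusted p = 8.8e-11) and 0.93 ± 0.05 in resistant 786-O (adjusted p = 9.7e-10), and by 0.61 in resistant 786-O with the GC and length trend removed. The difference of these changes was 0.17 ± 0.08 and not called (adjusted p = 0.062), but was 0.52 and called with that trend removed (adjusted p = 1.1e-06) and 0.24 and called without replicate 3 of resistant 786-O (adjusted p = 0.0046). The ligand-binding partner ERBB3, which signals through ERBB2, did not reach 1 CPM in every library of any group, and was at most 0.697 CPM. ERBB4 was at most 10 counts in any library.

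IGF1R (chr15:98648539-98964530), the receptor for IGF1 and IGF2, and its relative INSR went in different directions in A498-Su. IGF1R was at 24.1, 23.9 and 22.5 CPM in A498, 66.8, 69.4 and 69.2 in A498-Su, 34.8, 37.5 and 37.3 CPM in 786-O, and 54.4, 51.8 and 60.6 CPM in resistant 786-O. Resistant libraries did not overlap with either parental line. IGF1R rose by 1.54 ± 0.06 (log2, edgeR, adjusted p = 1.1e-11) in A498-Su and 0.60 ± 0.06 (adjusted p = 3.9e-07) in resistant 786-O, and the larger change in A498-Su was called (difference 0.94 ± 0.09, adjusted p = 1.7e-07). The change in resistant 786-O was 0.38 with the GC and length trend removed. INSR, the insulin receptor, had 89, 48 and 55 counts in A498 and 7, 6 and 7 in A498-Su, and 0 in each 786-O library and 3, 3 and 2 in resistant 786-O, so that it was expressed in A498 alone.

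The FGF receptors split by member. FGFR2 (chr10:121478332-121598458), with part of its outermost promoter window shown above, and FGFR3 (chr4:1793293-1808872), both receptors for fibroblast growth factors, were higher in the resistant lines. FGFR2 was at 17.3, 17.5 and 16.8 CPM in A498, 75.1, 73.7 and 73.6 in A498-Su, 12, 11.7 and 11 CPM in 786-O, and 56.4, 20.8 and 62.4 CPM in resistant 786-O. The resistant libraries lay above the parental ones, but replicate 2 of resistant 786-O was far below the other two. On the log2 scale, FGFR2 rose by 2.11 ± 0.27 in A498-Su (edgeR, adjusted p = 5.3e-06) and 2.01 ± 0.27 in resistant 786-O (adjusted p = 1.1e-05), and 2.36 in resistant 786-O without that replicate. FGFR3 was at 2.92, 2.74 and 2.32 CPM in the A498 libraries, and reached 12.7, 12.5 and 11.9 CPM in A498-Su. In 786-O it was at 2.63, 2.69 and 2.62 CPM, and in resistant 786-O at 10.3, 7.19 and 11.1 CPM. The parental lines overlapped, and every resistant library exceeded them. FGFR3 rose by 2.21 ± 0.16 in A498-Su (log2, edgeR, adjusted p = 5.3e-09) and 1.85 ± 0.15 in resistant 786-O (adjusted p = 3e-08).

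FGFR1 and FGFR4, by contrast, were highest in parental A498. FGFR1 (chr8:38400215-38468834), the receptor for FGF2 among others, was at 243, 253 and 253 CPM in A498, 156, 153 and 154 in A498-Su, 123, 120 and 122 CPM in 786-O, and 152, 147 and 157 CPM in resistant 786-O. The A498-Su and resistant 786-O libraries overlapped between the parental levels. FGFR1 fell by 0.69 ± 0.04 in A498-Su (log2, edgeR, adjusted p = 7.2e-10) and rose by 0.32 ± 0.04 in resistant 786-O (adjusted p = 5.8e-06), but the latter was 0.07 and not called with the GC and length trend removed (adjusted p = 0.11). FGFR4 (chr5:177086905-177098144), the receptor that pairs with the co-receptor KLB for endocrine FGFs, was at 116, 121 and 119 CPM in A498, 39.4, 39.2 and 41.8 in A498-Su, 36.4, 34.1 and 36.7 CPM in 786-O, and 28.1, 20.3 and 32.6 CPM in resistant 786-O. A498 stood alone at the high level. The log2 fold change was -1.57 ± 0.11 in A498-Su (adjusted p = 7.8e-09) and -0.40 ± 0.11 in resistant 786-O (adjusted p = 0.0055, edgeR), and against 786-O the A498-Su value of 0.17 ± 0.12 was not called (adjusted p = 0.21). In resistant 786-O the call ended when counts were scaled to total counts only (adjusted p = 0.06) and when only the 786-O groups were fitted (adjusted p = 0.054), whereas the value was -0.833 with the GC and length trend removed (adjusted p = 3.6e-06) and -0.241 without replicate 2 (adjusted p = 0.0002). The value against 786-O became called with total counts (0.32, adjusted p = 0.027), with only the compared groups (0.206, adjusted p = 0.00014) and without replicate 2 of resistant 786-O (0.167, adjusted p = 0.0043).

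**Figure D4:**
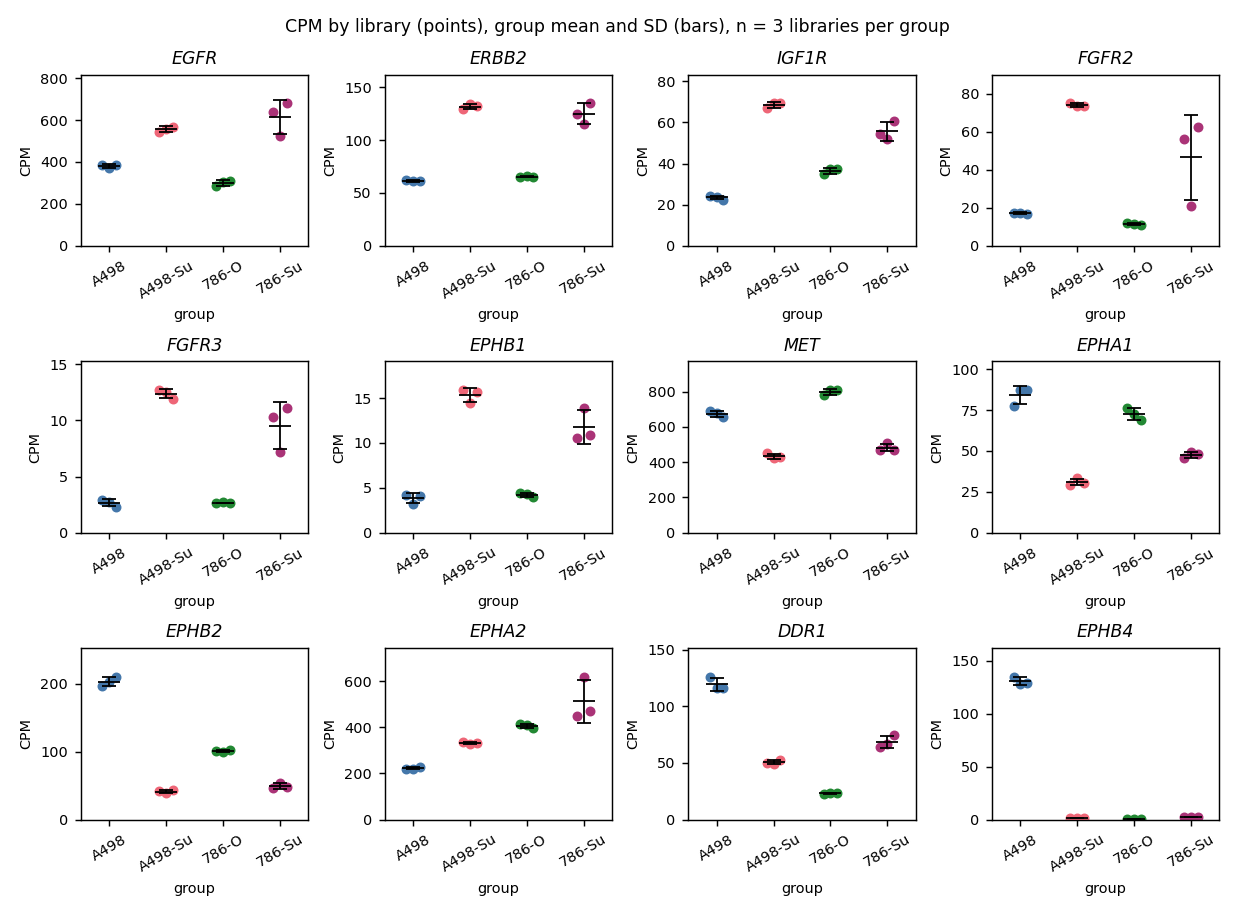
CPM of 12 receptors in each library (points), with the mean and SD of the 3 libraries of each group (bars). EGFR, ERBB2, IGF1R, FGFR2, FGFR3 and EPHB1 are higher and MET, EPHA1 and EPHB2 lower in both resistant lines than in both parental lines, and the low FGFR2 point in resistant 786-O is replicate 2.

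MET (chr7:116672196-116798377), the receptor for hepatocyte growth factor (HGF), was lower in the resistant lines. It was at 688, 678 and 653 CPM in A498, 451, 422 and 427 in A498-Su, 778, 806 and 809 CPM in 786-O, and 471, 506 and 469 CPM in resistant 786-O. No resistant library reached a parental one. MET fell by 0.64 ± 0.05 in A498-Su (log2, edgeR, adjusted p = 6.3e-09) and by 0.73 ± 0.05 in resistant 786-O (adjusted p = 2.5e-09), and the difference between these changes was 0.09 ± 0.06 (adjusted p = 0.22). That difference was -0.20 and called with the GC and length trend removed (adjusted p = 0.0094), and 0.14 and called without replicate 2 of resistant 786-O (adjusted p = 0.018). HGF was at the floor in all 4 groups. MST1R (chr3:49887002-49903873), the related receptor for macrophage-stimulating protein, was at 15.1, 14.8 and 16.8 CPM in A498, 0.298, 0.239 and 0.235 in A498-Su, 0.342, 0.207 and 0.288 CPM in 786-O, and 1.51, 3.09 and 1.14 CPM in resistant 786-O. It was therefore high in A498 alone, and A498-Su and 786-O overlapped. The log2 fold change was -5.89 ± 0.35 in A498-Su against A498 (edgeR, adjusted p = 6.9e-10), -0.11 ± 0.63 against 786-O (adjusted p = 0.90), and 2.75 ± 0.37 in resistant 786-O (adjusted p = 1e-05). Exons of other genes on the opposite strand cover 6.8% of MST1R exon bases and 6.9% of those of ERBB2. Overlap with genes on the same strand was largest for PDGFRA (16.1%), EPHA6 (11%) and EPHB1 (5.9%).

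The Eph receptors, which bind cell-bound ephrins and act in contact between neighbouring cells, made up the most members and went in both directions. EPHA2 (chr1:16124337-16156069) was at 219, 220 and 228 CPM in A498, 337, 329 and 332 in A498-Su, 414, 410 and 396 CPM in 786-O, and 448, 619 and 472 CPM in resistant 786-O. The order was A498, A498-Su, 786-O and resistant 786-O, with no overlap, and replicate 2 of resistant 786-O was the highest library. EPHA2 rose by 0.58 ± 0.09 in A498-Su (log2, edgeR, adjusted p = 2.4e-05), and was lower there than in 786-O (-0.29 ± 0.09, adjusted p = 0.009), a call that ended with scaling to total counts only (-0.14, adjusted p = 0.16). In resistant 786-O it rose by 0.34 ± 0.09 (adjusted p = 0.003), which was 0.18 without replicate 2, and 0.04 and not called with the GC and length trend removed (adjusted p = 0.67). EPHA1 (chr7:143390289-143408856) was at 77.7, 87.1 and 87.3 CPM in A498, 29.3, 33.3 and 30.7 in A498-Su, 76.2, 72.4 and 69 CPM in 786-O, and 45.5, 49.2 and 48.3 CPM in resistant 786-O. Both resistant lines lay below both parental lines. EPHA1 fell by 1.44 ± 0.07 in A498-Su (adjusted p = 3.7e-11) and 0.61 ± 0.06 in resistant 786-O (adjusted p = 5.8e-07), and the change in A498-Su was larger (difference -0.83 ± 0.09, adjusted p = 9.2e-07).

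EPHA4 (chr2:221418027-221574202), which binds ephrins of both classes, was at 6.72, 6.74 and 7.06 CPM in A498, 18.5, 19.3 and 18.9 in A498-Su, 10.4, 12 and 11.2 CPM in 786-O, and 10.6, 8.68 and 11.7 CPM in resistant 786-O. A498-Su was the highest group, and 786-O and resistant 786-O overlapped. EPHA4 rose by 1.47 ± 0.10 in A498-Su (log2, edgeR, adjusted p = 5.6e-09) and was also above 786-O there, by 0.76 ± 0.10 (adjusted p = 6.3e-06), whereas in resistant 786-O it was not called (-0.12 ± 0.10, adjusted p = 0.29). EPHA7 (chr6:93240020-93419687), another receptor for ephrin-A ligands, was at 31, 28.3 and 27.9 CPM in A498 and had 4, 2 and 2 counts in A498-Su. It had 0, 0 and 3 counts in 786-O and 0, 1 and 0 in resistant 786-O. A498 alone expressed it, and its summed counts were 268-fold those of A498-Su after scaling (95% exact interval 136 to 622, counting error only). The call between A498-Su and 786-O (adjusted p = 0.049) rests on these 8 and 3 counts and was lost in most fits that left out a library.

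Among the EPHB receptors, EPHB1 was higher and EPHB2 lower in both resistant lines than in both parental lines. EPHB1 (chr3:134795260-135260467) was at 4.23, 3.21 and 4.12 CPM in A498, 15.9, 14.4 and 15.7 in A498-Su, 4.42, 4.29 and 3.99 CPM in 786-O, and 10.5, 13.9 and 10.9 CPM in resistant 786-O. The parental lines overlapped, and the resistant libraries were above them. On the log2 scale, EPHB1 rose by 1.98 ± 0.13 in A498-Su (edgeR, adjusted p = 1.8e-09) and 1.47 ± 0.12 in resistant 786-O (adjusted p = 3.8e-08). EPHB2 (chr1:22710839-22921500) was at 197, 202 and 210 CPM in A498, 41.3, 39.3 and 43 in A498-Su, 101, 100 and 102 CPM in 786-O, and 46.2, 54.4 and 48.2 CPM in resistant 786-O. Resistant libraries lay well below either parental line. EPHB2 fell by 2.30 ± 0.06 in A498-Su (adjusted p = 7.2e-14, edgeR) and 1.03 ± 0.06 in resistant 786-O (adjusted p = 9.2e-10), and A498-Su was also lower than 786-O (-1.29 ± 0.06, adjusted p = 1.2e-10).

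EPHB4 and EPHB6 were receptors of parental A498. EPHB4 (chr7:100802565-100827523), the receptor for ephrin-B2 that marks veins in the endothelium, was at 135, 128 and 129 CPM in A498, 1.75, 1.29 and 1.68 in A498-Su, 0.789, 0.854 and 0.799 CPM in 786-O, and 2.88, 2.5 and 2.73 CPM in resistant 786-O. The 4 groups did not overlap, but A498-Su, 786-O and resistant 786-O all lay near 1 to 3 CPM. For EPHB4 the log2 fold change was -6.36 ± 0.09 in A498-Su against A498 (edgeR, adjusted p = 4.7e-17), 0.97 ± 0.14 against 786-O (adjusted p = 3.1e-05), and 1.73 ± 0.12 in resistant 786-O (adjusted p = 5.3e-09). EPHB6 (chr7:142855061-142871094), which lacks kinase activity, was at 7.27, 8.09 and 7.84 CPM in A498, 0.298, 0.383 and 0.274 in A498-Su, 0.21, 0.0776 and 0.111 CPM in 786-O, and 0.102, 0.343 and 0.131 CPM in resistant 786-O. It was expressed in A498 alone, and its log2 fold change in A498-Su was -4.60 ± 0.27 (edgeR, adjusted p = 6.1e-10). Its call between A498-Su and 786-O (adjusted p = 0.038) was lost in 5 of the fits that left out a library.

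ROR2 and ROR1, receptors for Wnt ligands such as WNT5A, behaved differently. ROR2 (chr9:91563091-91950228) had 3, 1 and 3 counts in A498, and was at 9.32, 9.43 and 10.7 CPM in A498-Su, 10, 10.3 and 10.6 CPM in 786-O, and 16.3, 18.6 and 18.9 CPM in resistant 786-O. A498-Su and 786-O overlapped, and A498 was at the floor. Scaled summed counts in A498-Su were 117 times those in A498 (95% exact interval 56.4 to 292, counting error only). Against 786-O the log2 fold change in A498-Su was -0.07 ± 0.09 (edgeR, adjusted p = 0.51), and ROR2 rose by 0.80 ± 0.08 in resistant 786-O (adjusted p = 5.6e-07). ROR1 (chr1:63774017-64181498) was at 31, 32.8 and 33.2 CPM in A498, 31.6, 30.1 and 31.7 in A498-Su, 42.1, 44 and 44.5 CPM in 786-O, and 33.3, 33.3 and 34.9 CPM in resistant 786-O. The A498 and A498-Su libraries overlapped, with a log2 fold change of -0.05 ± 0.05 (adjusted p = 0.38), which was -0.255 and called with the GC and length trend removed (adjusted p = 0.00046). In resistant 786-O, ROR1 fell by 0.37 ± 0.05 (adjusted p = 1.2e-05).

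DDR1 (chr6:30876421-30900156), a receptor that responds to collagen, was at 126, 116 and 116 CPM in A498, 49.6, 49.3 and 52.7 in A498-Su, 22.6, 23.3 and 23.8 CPM in 786-O, and 64.1, 67.1 and 74.7 CPM in resistant 786-O. No groups overlapped, and the resistant lines lay between the parental ones. DDR1 fell by 1.24 ± 0.06 in A498-Su (log2, edgeR, adjusted p = 8.3e-11) and rose by 1.56 ± 0.06 in resistant 786-O (adjusted p = 2e-11), and against 786-O the A498-Su libraries were higher by 1.12 ± 0.06 (adjusted p = 9.8e-10). RYK (chr3:134065303-134250859), an atypical Wnt receptor, was at 40.3, 40.4 and 39.7 CPM in A498, 61.3, 63.3 and 64.8 in A498-Su, 78.2, 80.4 and 80 CPM in 786-O, and 53.1, 46.1 and 51.1 CPM in resistant 786-O. It too had its parental lines at the extremes. RYK rose by 0.65 ± 0.06 in A498-Su (adjusted p = 4e-08, edgeR) and fell by 0.67 ± 0.05 in resistant 786-O (adjusted p = 3.1e-08), and these changes were 0.34 and -0.38 with the GC and length trend removed.

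The remaining receptors that passed the filter were low. NTRK3, a neurotrophin receptor, was at 2.31 to 2.56 CPM in 786-O and at no more than 3 counts in any library of resistant 786-O, and scaled summed counts were 56.6-fold higher in 786-O (95% exact interval 25.7 to 156, counting error only). The pseudokinase PTK7 was at 2.94 to 4.09 CPM in resistant 786-O and below 1 CPM in every library of the other groups. TEK, the angiopoietin receptor, was at 1.95 to 2.52 CPM in A498 and at most 0.261 CPM elsewhere. DDR2, another collagen receptor, was at 0.744 to 1.19 CPM in A498 and 2.49 to 2.54 CPM in A498-Su. It was at 0.132 to 0.285 CPM in 786-O and 0.715 to 1.14 CPM in resistant 786-O. EPHA6 was at 1.22 to 3.65 CPM over all libraries, and EPHA5, ERBB3, ERBB4, EPHB3 and ROS1 did not reach 1 CPM in any library. INSR was called higher in resistant than in parental 786-O although both groups were at the floor, so no fold is given for it.

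**Figure D5:**
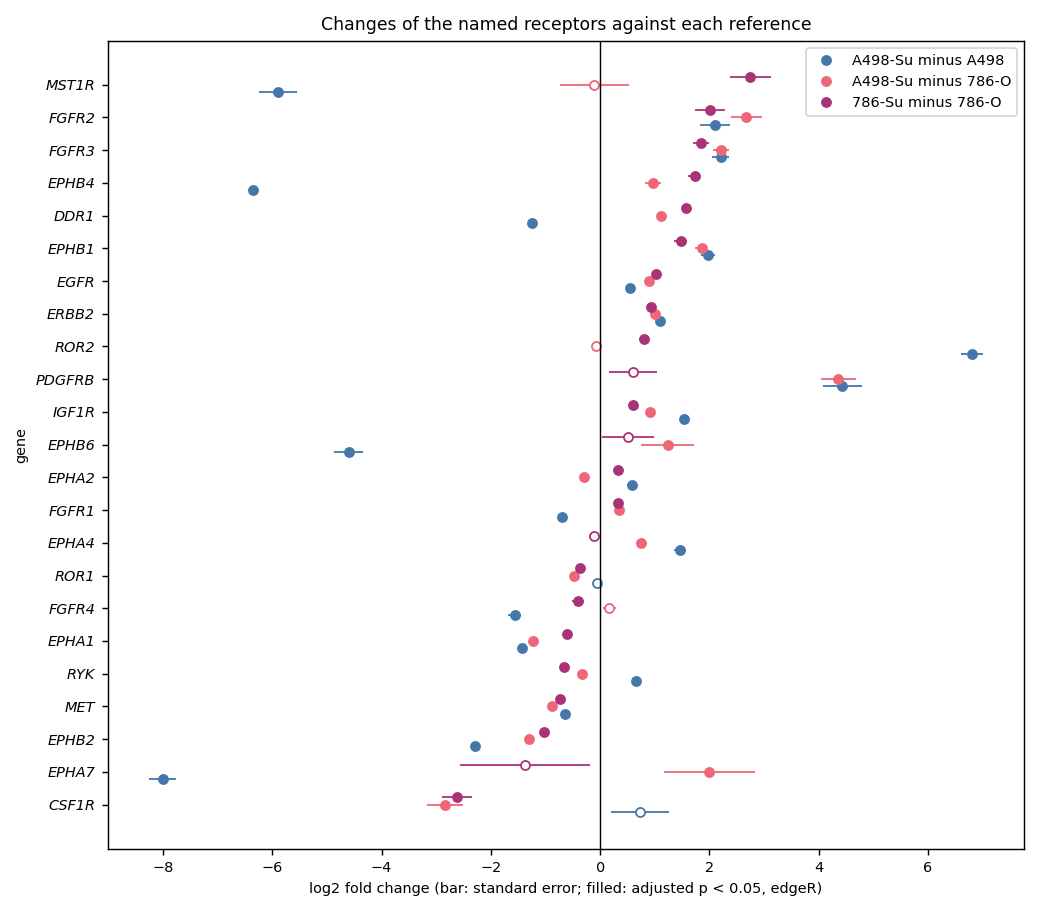
Log2 fold change (x axis, with its SE) of the 23 receptors described by library (y axis) in A498-Su against A498 (blue), A498-Su against 786-O (pink) and resistant against parental 786-O (purple), with filled points for an adjusted p under 0.05 in edgeR. The FGFR2, FGFR3, EPHB1, EGFR, ERBB2 and IGF1R points lie right of 0 in all 3 comparisons, those of MET, EPHA1 and EPHB2 left of it, and MST1R, EPHB4, EPHB6 and EPHA7 lie far left in A498-Su against A498 only.

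A comparison of the parental lines gives the receptor background on which resistance was selected. Of the 34 receptors tested, 10 were higher and 17 lower in 786-O than in A498 and 7 were not called, beside 74.2% of all genes called, 38.2% higher and 36.1% lower. Beyond a log2 fold change of 1, 4 were higher and 14 lower, beside 12.1% and 19.8% of all genes. EPHB4, EPHA7, MST1R, EPHB6, INSR and TEK were expressed in A498 and not in 786-O, and ROR2, NTRK3 and CSF1R in 786-O and not in A498. In A498-Su, EPHA7, EPHB6, MST1R, INSR and TEK were no longer expressed and ROR2 was, as in 786-O. NTRK3 and CSF1R were below 1 CPM in A498-Su, unlike in 786-O. Of the changes in the labelled pairs, 26 of 34 differed between the pairs when the difference itself was tested (9 higher and 17 lower in A498-Su), beside 68.3% of all genes, 33.9% higher and 34.4% lower.

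The receptors' ligands were followed in a list of 65 genes, of which 62 were read from the table and 40 passed the filter. Some of the 40 passed only through the group in which they were high. Examples are NRG3 (18, 6 and 9 counts in A498, 0 in each A498-Su library) and NTF4 (35, 13 and 34 against 0, 0 and 2). The counts and medians given for the ligands and for the lists that follow are therefore a description. Between A498-Su and A498, 7 were higher and 26 lower, with a median log2 fold change of -0.66, where 36.3% of all genes were higher and 36.4% lower. Against 786-O, A498-Su had 12 higher and 18 lower (median -0.17), beside 31.6% and 32.1% of all genes. Between resistant and parental 786-O, 16 were higher and 15 lower (median 0.15), beside 35% and 33.5%. Ligands of EGFR moved in different directions. EREG, encoding epiregulin, was at 0.724, 0.418 and 0.258 CPM in A498, 49.8, 48 and 46 in A498-Su, 255, 251 and 253 CPM in 786-O, and 19.1, 21.6 and 19.4 CPM in resistant 786-O. It rose by 6.60 ± 0.14 in A498-Su (log2, edgeR, adjusted p = 5.6e-15) and fell by 3.66 ± 0.08 in resistant 786-O (adjusted p = 5.2e-14), so that 786-O was by far the highest group. Amphiregulin (AREG) fell in both, by 2.29 ± 0.14 and 1.78 ± 0.12, and HBEGF rose by 1.20 ± 0.13 in A498-Su. NRG1, the ligand of ERBB3 and ERBB4, fell by 1.08 ± 0.08 in A498-Su. Set against 786-O, A498-Su was lower in EREG (-2.40 ± 0.08), AREG (-2.14 ± 0.14), HBEGF (-1.33 ± 0.11) and NRG1 (-0.75 ± 0.08), so that HBEGF and EREG turned with the reference. In addition, betacellulin (BTC) rose by 2.85 ± 0.15 in resistant 786-O.

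Of 7 ligands of the PDGFR family that passed, all 7 were lower in A498-Su than in A498, where 36.4% of all genes were. Against 786-O, 6 were lower and 1 higher in A498-Su, beside 32.1% and 31.6% of all genes. In resistant 786-O 2 were higher and 3 lower, beside 35% and 33.5% of all genes. CSF1, the ligand of CSF1R, was at 1234 ± 48.9 CPM in A498 (SD, n = 3), 201 ± 3.83 CPM in A498-Su, 341 ± 5.63 CPM in 786-O and 364 ± 24 CPM in resistant 786-O. Per kilobase, this was 38.4 to 236 CPM per kb for CSF1, against 0.0292 to 0.368 CPM per kb for CSF1R. CSF1 fell by 2.62 ± 0.05 in A498-Su (log2, edgeR, adjusted p = 3.5e-15), and was lower than in 786-O by a log2 fold change of -0.76 ± 0.05 (adjusted p = 5.4e-09). PDGFA fell by 1.15 ± 0.06 in A498-Su, and PDGFC by 1.29 ± 0.06 in resistant 786-O. Of the ephrins, EFNA1 rose by 3.44 ± 0.24 and EFNB1, a ligand of the EPHB receptors, fell by 3.76 ± 0.09 in A498-Su, but neither was called against 786-O (-0.21 ± 0.17 and -0.03 ± 0.10, adjusted p = 0.28 and 0.80). VEGFA was expressed in all 4 groups, with means between 178 and 252 CPM. FGF2 fell by 1.03 ± 0.09 in A498-Su and was not called against 786-O (-0.03 ± 0.09), and FGF5 by 1.06 ± 0.21 in resistant 786-O.

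Of the co-receptors, 7 passed the filter. In A498-Su against A498, 4 fell and 2 rose, beside 36.4% and 36.3% of all genes. All 7 were lower in A498-Su than in 786-O, where 32.1% of all genes were, and all 7 were lower in resistant than in parental 786-O, where 33.5% were. KLB, which is among the 7, had 13, 20 and 20 counts in 786-O and at most 8 in any other library. It passed the filter only through 786-O, so its lower direction against that group carries no weight. The co-receptor of VEGF and semaphorins, NRP1, fell by 2.09 ± 0.11 in A498-Su (log2, edgeR, adjusted p = 2.2e-10) and by 1.53 ± 0.11 in resistant 786-O (adjusted p = 1.3e-08). NRP2 fell by 2.45 ± 0.06, the MET co-receptor CD44 by 1.70 ± 0.08 and the syndecan SDC1 by 1.46 ± 0.04 in A498-Su, whereas GFRA1, the GDNF co-receptor, rose by 1.71 ± 0.16. Against 786-O, A498-Su was lower in NRP1 (-0.78 ± 0.11), NRP2 (-1.18 ± 0.06), CD44 (-1.20 ± 0.08), SDC1 (-0.83 ± 0.04) and also GFRA1 (-0.79 ± 0.15). Of 16 adaptors and effectors, A498-Su had 11 higher and 3 lower against A498 and 7 higher and 3 lower against 786-O, and resistant 786-O had 3 higher and 9 lower, beside the shares of all genes given for the ligands. The docking protein IRS1 rose by 1.09 ± 0.07 in A498-Su, and was higher than in 786-O by 0.33 ± 0.07. Of 19 inhibitors and turnover genes, A498-Su had 7 higher and 10 lower against A498 and 6 higher and 7 lower against 786-O, and resistant 786-O had 2 higher and 9 lower, beside the same shares of all genes. The receptor-binding inhibitor GRB14 fell in both, by 1.55 ± 0.11 and 1.30 ± 0.10. SPRY4 and SPRED3, feedback inhibitors of the MAP kinase pathway, fell by 2.88 ± 0.32 and 3.08 ± 0.19 in A498-Su, as did the phosphatase PTPRJ by 1.97 ± 0.07 and SOCS3 by 1.03 ± 0.17. Against 786-O, SPRED3 was lower (-1.28 ± 0.21), as was GRB14 (-1.19 ± 0.11), whereas SPRY4 (-0.15 ± 0.37), PTPRJ (0.04 ± 0.07) and SOCS3 (0.06 ± 0.17) were not called (adjusted p = 0.74, 0.66 and 0.78).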

How the data were processed

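Polyadenylated RNA of 2 ccRCC cell lines and their sunitinib-resistant derivatives was sequenced in 12 libraries, prepared with a stranded mRNA kit. The authors trimmed reads with Trimmomatic 0.36.6, aligned them to GRCh38 with HISAT2 2.1.0 and counted them over GENCODE exons with featureCounts 1.6.3. They deposited raw counts per gene, without normalization. The strand option they state for featureCounts (1) is the opposite of the one usual for this kit, yet abundant genes such as the keratins KRT8 and KRT18 have high counts, so it could not be told whether antisense reads were kept apart. Reads shared by overlapping genes can lower or raise a count. Groups were taken from the sample titles.

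The analysis used edgeR 4.0.16 in R 4.3.3. Genes were filtered with filterByExpr (19929 kept), normalized by TMM and fitted in a single quasi-likelihood model with 4 group means over 12 libraries. Benjamini-Hochberg adjustment ran over every tested gene, and an adjusted p under 0.05 made a call. The prior count of log2 fold changes was 0.125. No set test was made. CPM per kb used exon lengths of GENCODE v44, with the exons of all transcripts of a gene joined, and positions are from the same annotation. In simulated counts for resistant minus parental 786-O, 200 of 200 genes changed 2-fold were recovered among 19169, and 6 unchanged genes were called. The changed genes were drawn from those with a mean of at least 5 CPM. The spread followed the trend over all genes and no library stood apart, so low receptors and the outlying replicate were not covered. DESeq2 1.42.0, other scalings and filters, a GC content and exon length trend fitted with mgcv 1.9.3, a minimum fold change, the study's own test of gene counts, and each replicate left out in turn were run as alternatives.

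The members, gene lists and tests were chosen with earlier results of these data known. Values by library are given for sunitinib targets of at least 1 CPM in a library, members with a group mean of at least 20 CPM, and called members with a log2 fold change of at least 1 and at least 5 CPM in the higher group, in A498-Su against A498 or 786-O or resistant against parental 786-O. Other genes of the lists were named by the last of these rules in the labelled pairs. VEGFA, HGF, RGS5, the low receptors and the neighbouring genes were named after their values were seen. Some ligands of the lists are not analysed here. Intervals cover counting error only.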

Additional observations from a re-analysis of the deposited data

Results flagged for a closer look

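The genes that follow are given because their difference between resistant and parental libraries was not the same in the labelled pairs, by a test in the edgeR fit (adjusted p under 0.05). All values are the log2 fold change of A498-Su against A498 minus that of resistant against parental 786-O. A negative value means that the change in A498-Su was the lower, and the difference was not tested for any cause. Since 68.3% of all genes tested passed this test, such a difference is common in these libraries.

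Among receptors expressed in all 4 groups and above 5 CPM on average in some group, the values were EGFR -0.48, IGF1R 0.94, FGFR1 -1.01, FGFR4 -1.16, ROR1 0.31, EPHA1 -0.83, EPHA4 1.58, EPHB1 0.50, EPHB2 -1.27, DDR1 -2.80 and RYK 1.32. The EPHB1 difference was no longer called without A498 replicate 2 (0.41, adjusted p = 0.051), and that of ROR1 was 0.05 and not called with the GC and length trend removed (adjusted p = 0.55). The same removal moved FGFR4 to -0.56, EPHA1 to -0.423 and RYK to 0.723, all still called (adjusted p = 0.0025, 0.00026 and 2.2e-07). The other receptors described by library, which were not expressed in every group, had values of PDGFRB 3.83, CSF1R 3.34, ROR2 6.01, MST1R -8.64, EPHA7 -6.63, EPHB4 -8.09 and EPHB6 -5.11. The remaining receptors, all below 5 CPM on average in every group, had values of ERBB3 -3.04, ERBB4 -5.11, INSR -7.14, NTRK3 7.27, TEK -2.70, EPHA6 -0.90, EPHB3 -8.18 and PTK7 -2.80. Where a group was at the floor, as for ERBB4, INSR and EPHB3 in 786-O, NTRK3 in resistant 786-O and ROR2 in A498, the value depends on the prior count. The EPHA7 value was not called without resistant 786-O replicate 2 (-5.06, adjusted p = 0.92).

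Ligands had values of HBEGF 1.80, AREG -0.51, EREG 10.26, BTC -2.18, EFNA1 2.90, EFNB1 -4.17, PDGFA -1.504, PDGFC 0.63, CSF1 -2.72, FGF2 -0.64 and FGF5 3.59. For adaptors and inhibitors the values were IRS1 0.95, SPRY4 -3.57, SPRED3 -2.54, SOCS3 -1.08 and PTPRJ -1.93, and for co-receptors NRP1 -0.56, NRP2 -1.80, GFRA1 2.46, SDC1 -1.13 and CD44 -0.94.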

How the results depend on the processing

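The batch label coincides with the group, 3 libraries per group limit precision, and levels below 1 CPM rest on few counts. For the receptors described by library, 1879 values were recomputed under 21 alternative settings. Direction and side of the threshold were kept in 1831, 25 were no longer called, 13 were newly called and 10 changed sign. A requirement of 10 counts in every library, which removes receptors at the floor in a group, left 10 higher and 7 lower in A498-Su against A498, and 12 higher in resistant 786-O. It left 11 higher in A498-Su against 786-O, 6 higher and 9 lower in 786-O against A498, and 5 higher and 9 lower for the difference of changes. With a log2 fold change of more than 1 required, 3 were lower in resistant 786-O, 4 were lower in A498-Su against 786-O and 4 were higher in 786-O against A498. The paper names an unequal-variance t-test of gene counts and does not say whether counts were scaled for depth. Run here on raw counts without such scaling and with unadjusted p-values, it called 9 higher in A498-Su against 786-O and 10 lower in 786-O against A498. The same test was also run on CPM, where no count of called receptors moved as far in proportion from the main fit. Every A498-Su and A498 library had a lower total count than any 786-O library, and the part of depth in the raw-count calls was not tested. Leaving out replicates gave 14 to 16 higher and 13 to 14 lower in A498-Su, 21 to 22 and 8 to 9 in resistant 786-O, 18 to 21 and 8 to 9 in A498-Su against 786-O, 10 to 12 and 17 to 19 between the parental lines, and 8 to 12 and 17 to 18 for the difference. Shares of all genes are given above for the fold limit, but not for the other settings or the replicate block. Counts under those settings are a description and cannot be set beside a background.

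Sign changes were seen with library size alone for ROR1 in A498-Su (0.015), EPHA4 in resistant 786-O (0.027), and ROR2 (0.081) and MST1R (0.043) in A498-Su against 786-O. They were seen on leaving out a library for ROR1 in A498-Su (0.004 without A498-Su replicate 2, range -0.082 to 0.004), MST1R in A498-Su against 786-O (0.045 without 786-O replicate 1, range -0.274 to 0.045), EPHA7 (1.56 without 786-O replicate 3, range -2.944 to 1.56) and EPHB6 (-0.18 without resistant 786-O replicate 2, range -0.18 to 0.951) in resistant 786-O, and the FGFR2 difference of changes (-0.24 without resistant 786-O replicate 2, adjusted p = 0.0062, range -0.24 to 0.378). The MET difference was -0.20 with the GC and length trend removed (adjusted p = 0.0094). The cause was not tested. Library size alone moved the median log2 fold change of all genes to 0.176 in resistant 786-O and 0.154 in A498-Su against 786-O, and the share of calls that were higher from 51.1% to 62.5% and from 49.6% to 62.6%.

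Deviations of same-numbered libraries correlated between -0.184 and 0.098, so the numbers do not pair the samples. With the replicate block, A498-Su had 16 receptors higher and 13 lower, resistant 786-O had 21 and 8, and in A498-Su against 786-O 19 were higher, where EPHA7 was not called (1.99, adjusted p = 0.066).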
